A study of Mus musculus with 46 samples.

Results

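Hearts of mice with both floxed Lmna alleles (Lmna F/F) did not all carry the same RNA profile 2 weeks after tamoxifen, and the heart-to-heart spread within this genotype is described here without a comparison of genotypes. The hearts were chosen from the labels alone: every Lmna F/F heart of 2 weeks with cGas, which gave 5 hearts made with the NEBNext kit and 6 made with the QuantSeq kit, 11 of 46 libraries in all. The NEBNext hearts carry the genotype Lmna F/F with a Myh6MCM transgene (spelled My6MCM in these labels) and their labels name no cGas allele, and the QuantSeq hearts are Lmna F/F, cGas +/+ and Myh6MCM Tg/0. Myh6MCM is a Cre recombinase made in cardiomyocytes that becomes active on tamoxifen, so Lmna is deleted in heart muscle cells and the other cells of the heart keep it. Every mouse had received tamoxifen in corn oil at 6 to 8 weeks of age, 100 uL of a 4 mg/mL solution on each of 4 days. Adult hearts were perfused with KCl before RNA extraction. NEBNext libraries cover whole polyadenylated transcripts, and QuantSeq libraries give tags near the 3' end, so levels are compared between hearts of a kit and not between kits. Control hearts of the same time serve only to show the range outside this genotype: 7 wild type hearts (Lmna +/+; Myh6MCM Tg/0) for NEBNext and 6 hearts with 1 floxed allele (Lmna F/+; cGas +/+; Myh6MCM Tg/0) for QuantSeq. Each sample title carries a heart number of its own, so each library is counted as 1 heart.

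Lamins A and C, the products of Lmna, form the nuclear lamina under the inner nuclear membrane, and mutations in the gene cause dilated cardiomyopathy with conduction disease. An injured heart draws in monocytes that become macrophages, activates fibroblasts that lay down collagen and matricellular proteins, and turns cardiomyocytes towards a stress programme with less fatty acid oxidation and altered ion channels. Timp1, a secreted inhibitor of matrix metalloproteinases that fibroblasts and macrophages make in damaged tissue, was taken as the axis along which the hearts were ordered. No measure of heart function was used here, so the order of the hearts is an order of Timp1 RNA and nothing else.

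Timp1 stood at 15.4, 259, 489, 211 and 231 normalised CPM (counts scaled to library size and TMM factors) in NEBNext hearts N1 to N5. Heart N1 stood far below the other four and above the wild type range of 2.21 to 7.51. In the QuantSeq hearts Timp1 was lowest at 33.9, had a median of 50.0 and was highest at 176. Hearts Q1 (168) and Q5 (176) stood apart from Q2, Q3, Q4 and Q6, which lay between 33.9 and 59.0, and all 6 were above the F/+ range of 1.80 to 13.9. The highest heart exceeded the lowest 31.7-fold in NEBNext and 5.20-fold in QuantSeq, so the NEBNext axis is largely a contrast of 1 heart with 4 and the QuantSeq axis one of 2 hearts with 4. Timp1 lies within Syn1, a neuronal gene on the other strand, and Syn1 was at most 0.768 CPM in these hearts.

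Total counts ran from 15955989 to 25650922 per NEBNext heart and from 22886964 to 33993289 per QuantSeq heart. Hearts N1 and N2 came from sequencing pool KIUC033, N3, N4 and N5 from KIUC035, and all 6 QuantSeq hearts from KICHMC007. By label N1 and N3, the lowest and the highest for Timp1, were male and the other 3 NEBNext hearts female, while Q1, Q4 and Q5 were male. Mitochondrially encoded mRNAs took 22.7% of the counts of N1 against 8.30 to 12.5% in N2 to N5, and 28.2 to 40.9% in the QuantSeq hearts, with no common order with Timp1 there. Heart muscle genes were abundant in every heart: Myh6, which encodes the predominant adult cardiac myosin, ranged from 2974 to 8527 CPM in NEBNext and from 1238 to 2855 CPM in QuantSeq. Atrial genes differed between hearts, as described with Nppa. How reads were counted, and whether by strand, is unknown here, so values of genes with near-identical copies are uncertain.

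For each gene the slope on Timp1 was fitted with edgeR's quasi-likelihood test over the hearts of a kit, as the log2 change of the gene per doubling of Timp1, and a gene is called where the Benjamini-Hochberg adjusted p over all genes tested was under 0.05. Of 13364 genes tested in NEBNext, 1481 rose with Timp1 (11.1%) and 2563 fell (19.2%). Of 12617 tested in QuantSeq, 121 rose (0.959%) and 25 fell (0.198%). Counts of list members given below are to be read beside these shares of all genes. Without N1 the NEBNext fit called 0 genes by edgeR, with 2280 at an unadjusted p under 0.05. Without Q1 the QuantSeq fit called 5 genes, which were Tnc, Nmrk2, Ccr2, Ccl8 and Serpina3n, and without Q1 and Q5 it called 1. Leaving out Q5 alone gave 139 rising and 54 falling QuantSeq genes. The NEBNext counts thus rest on N1 and the QuantSeq counts largely on Q1. Slopes without N1, and without Q1 and Q5, are given below as values. With sex as a term the QuantSeq fit called 20 rising and 2 falling genes, and with the sequencing pool as a term the NEBNext fit called 573 and 647. The median slope over all genes was -0.03 in both kits. Scaling by library totals alone, with no TMM factors, moved it to 0.09 in NEBNext and 0.03 in QuantSeq and turned the NEBNext split to 4309 rising and 783 falling genes, so slopes are read against the median of all genes.

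**Figure D1:**
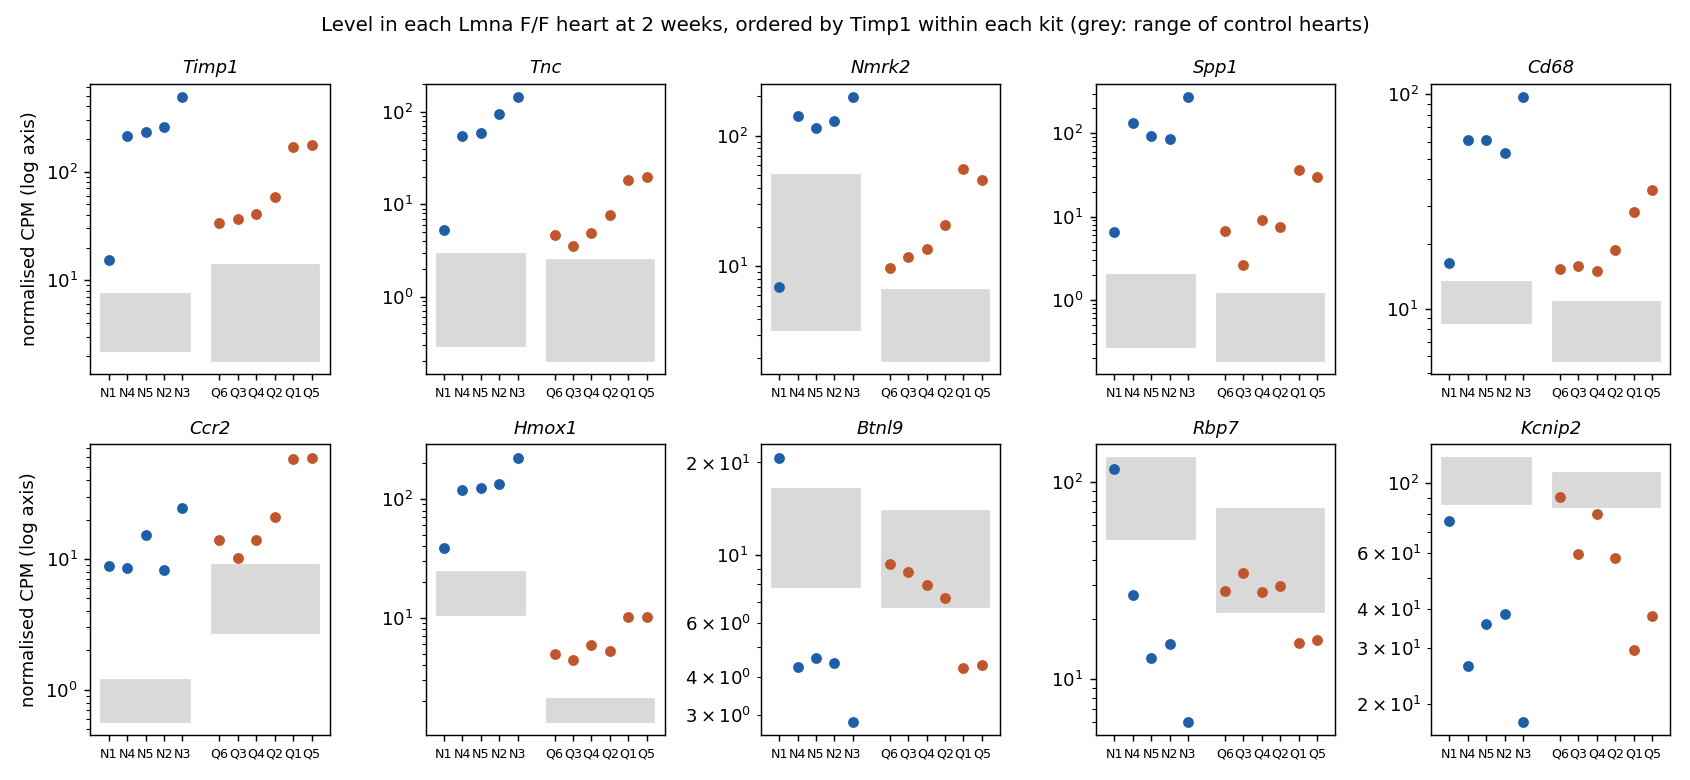
Normalised CPM (vertical log axis) of 10 genes in each F/F heart, with NEBNext hearts in blue and QuantSeq hearts in orange, each ordered from lowest to highest Timp1; grey bands span the control hearts of the kit. Each point is 1 heart: N1 stands apart from N2 to N5 in most panels, and Q1 and Q5 from the other 4 QuantSeq hearts.

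The kits hold different hearts, so each is a repeat of the other. Over 11869 genes tested in both, 84 rose in both kits (0.708%) and 17 fell in both (0.143%). Of the 114 genes that rose in QuantSeq and were also tested in NEBNext, 109 (95.6%) had a positive NEBNext slope, against 41.1% of all genes, and 84 (73.7%) were called there. All 23 such genes that fell in QuantSeq had a negative NEBNext slope, against 58.9% of all genes, and 17 (73.9%) were called. Read the other way, 83.6% of genes called rising in NEBNext had a positive QuantSeq slope (41.4% of all genes) and 6.40% were called, and 69.8% of those called falling had a negative one (58.6% of all genes) and 0.680% were called. A common slope over the 11 hearts, fitted with a kit term, called 1158 rising (9.76%) and 2147 falling (18.1%) genes. Timp1 was centred within each kit, and N1 lay farthest from the mean of its kit, so N1 weighs most in that fit. No common fit without N1 was run, which limits every common slope count given below. The slopes themselves differed between kits for 0 genes by edgeR, with 1481 genes (12.5%) at an unadjusted p under 0.05.

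Genes called in QuantSeq mostly kept their sign in NEBNext without N1. Genes called in NEBNext kept theirs in QuantSeq without Q1 and Q5 no more often than all genes. These are different sets of genes, and the 4 QuantSeq hearts left span only 33.9 to 59.0 CPM of Timp1. The removals are therefore not alike. Among N2 to N5 alone, 113 of 119 genes that rose in QuantSeq (95.0%) had a positive slope against 45.7% of all genes. Of those that fell, 20 of 23 (87.0%) had a negative slope against 54.3% of all genes. Within pool KIUC035, which holds N3, N4 and N5 and needs no correction for the pool, 110 of 114 (96.5%) were positive against 46.5% of all genes. Of the genes that fell, 20 of 23 were negative there against 53.5% of all genes. Both checks rest largely on N3, whose Timp1 of 489 CPM stood over 259, 211 and 231 in N2, N4 and N5. N3 is also the only male among these hearts, so Timp1 and sex cannot be told apart there. Among the 4 QuantSeq hearts of low Timp1, 53.2% of the genes that rose in NEBNext had a positive slope, against 55.6% of all genes. For the genes that fell in NEBNext the share with a negative slope was 36.4%, against 44.4% of all genes.

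**Figure D2:**
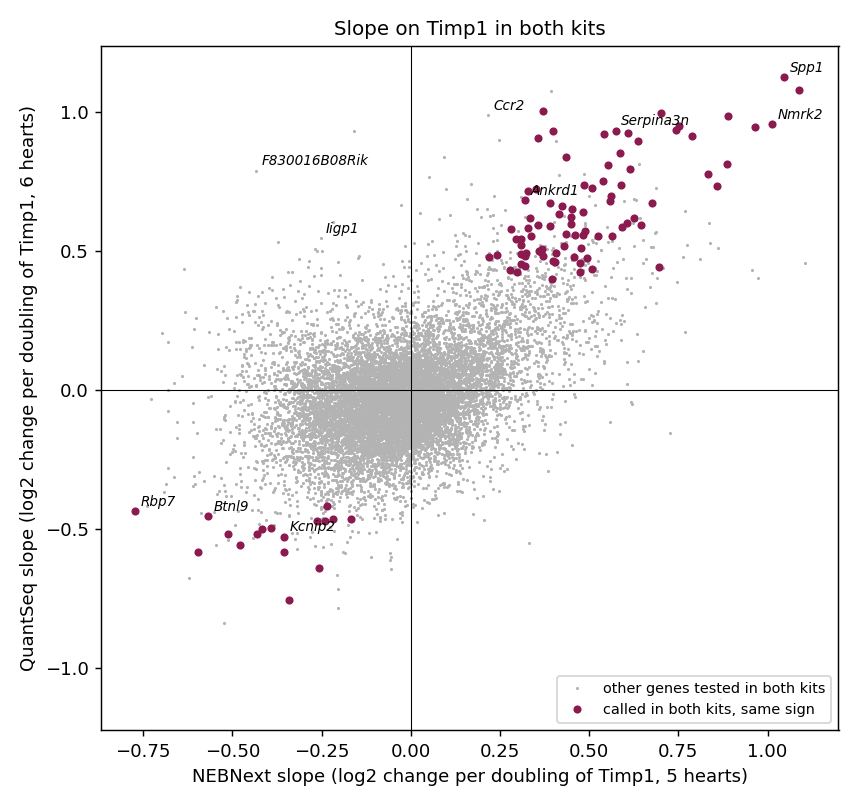
Slope of each of 11869 genes on Timp1 (log2 change per doubling of Timp1) over the 5 NEBNext hearts (horizontal) and the 6 QuantSeq hearts (vertical); filled points are the 84 genes that rose and the 17 that fell in both kits. Iigp1 and F830016B08Rik lie at the upper left, called in both kits with opposite signs.

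Among genes with a mean of at least 5 CPM in each kit, those whose correlation with Timp1 was nearest to 1 in both were Tnc, Nmrk2, Aldh1a2, Trem2, Fxyd5, Tubb6, Myof, Nme1, Tmem176a and Rab29. All 10 were called in NEBNext and 5 in QuantSeq. Tnc, the matricellular protein tenascin C that is made in healing tissue, stood at 5.22, 94.4, 146, 55.3 and 59.0 CPM in N1 to N5. N1 was the lowest and lay above the wild type range of 0.293 to 2.86. In QuantSeq Tnc ranged from 3.56 over a median of 6.31 to 19.7, with Q1 (18.3) and Q5 (19.7) above the other four. Its slope was 0.96 ± 0.07 (SE, n = 5, adjusted p = 0.00041) in NEBNext and 0.95 ± 0.10 (SE, n = 6, adjusted p = 0.00056) in QuantSeq. It was 1.11 without N1 and 1.15 without Q1 and Q5.

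Nmrk2, a kinase of nicotinamide riboside in the muscle pathway to NAD, was at 6.92 CPM in N1 and at 130, 198, 142 and 113 in N2 to N5. N1 lay within the wild type range of 3.27 to 50.3 and the other four above it. QuantSeq values ran from 9.77 over a median of 17.1 to 55.3, and all 6 exceeded the F/+ maximum of 6.57. The slopes were 1.01 ± 0.09 (adjusted p = 0.00051) and 0.96 ± 0.09 (adjusted p = 0.00016). Aldh1a2, which makes retinoic acid and in the heart marks activated epicardium, was at 6.69, 61.2, 148, 61.2 and 52.3 CPM in N1 to N5 and spanned 8.77 to 32.0 (median 12.5) in QuantSeq. Its slopes were 0.86 ± 0.07 (adjusted p = 0.00044) and 0.73 ± 0.09 (adjusted p = 0.0022).

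Spp1, which encodes the secreted phosphoprotein osteopontin, had the steepest QuantSeq slope of the genes described so far. It stood at 6.56, 84.8, 274, 131 and 92.2 CPM in N1 to N5 against at most 2.00 in wild type hearts. In QuantSeq it ranged from 2.63 in Q3 over a median of 8.36 to 36.6 in Q1, and every heart exceeded the F/+ maximum of 1.19. Slopes were 1.05 ± 0.10 (adjusted p = 0.00071) and 1.13 ± 0.15 (adjusted p = 0.0034). Serpina3n, an acute phase protease inhibitor, was at 56.7, 297, 442, 238 and 216 CPM in N1 to N5, with slope 0.58 ± 0.06 (adjusted p = 0.0009). Its QuantSeq values separated Q1 (87.6) and Q5 (91.4) from the other four, which spanned only 17.5 to 24.7. The QuantSeq slope of Serpina3n was 0.93 ± 0.10 (adjusted p = 0.00096) over 6 hearts and 0.05 among those 4.

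Markers of macrophages and monocytes were the list with the most members rising in both kits. Of 27 measured, 20 rose and 0 fell with Timp1 in NEBNext, 14 rose and 0 fell in QuantSeq, and 11 rose in both. The list's median slope was 0.37 in NEBNext and 0.44 in QuantSeq, against -0.03 for all genes, and 0.65 without N1 and 0.42 without Q1 and Q5. The summed level of the 27 markers was 992 CPM in N1 and 1825 to 3747 in the other NEBNext hearts, against 525 to 816 in wild type hearts. In QuantSeq it was 2688 in Q1 and 2779 in Q5 and 1278 to 1729 in the other four, against 719 to 945 in F/+ hearts. In RNA of heart tissue more cells of a type and more RNA per cell cannot be told apart.

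Cd68, a lysosomal protein of macrophages, was at 16.3, 53, 96.9, 61.3 and 61.2 CPM in N1 to N5 and ranged from 15 over 17.3 to 35.8 in QuantSeq. Its slopes were 0.49 ± 0.05 (adjusted p = 0.0011) and 0.47 ± 0.08 (adjusted p = 0.015). Trem2, a lipid receptor of tissue macrophages, was at 3.39, 17.1, 25.4, 15.4 and 20.9 CPM in N1 to N5, where the wild type maximum was 3.33, and at 4.86 to 13.5 (median 6.26) in QuantSeq. Its slope was 0.59 in both kits (SE 0.06 and 0.09; adjusted p = 0.0009 and 0.009).

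Ccr2, the chemokine receptor of monocytes recruited from blood, did not follow the same order as Cd68. It stood at 8.83, 8.24, 24.4, 8.55 and 15.2 CPM in N1 to N5, so that N1 was close to N2 and N4 and lay far above the wild type range of 0.572 to 1.18. The NEBNext slope was 0.22 ± 0.11 and was not called (adjusted p = 0.14). In QuantSeq Ccr2 was among the genes closest to Timp1, from 10.1 over a median of 17.5 to 59.5 CPM, with slope 0.99 ± 0.09 (adjusted p = 0.00016), 0.98 without Q1 and 0.96 without Q1 and Q5. The difference between the kits' slopes missed the threshold (adjusted p = 0.058), and without N1 the NEBNext slope was 1.04. Ly6c2, a surface protein of inflammatory monocytes named here after its values were seen, was by contrast low in N1: 0.491, 3.58, 5.36, 3.02 and 5.4 CPM in N1 to N5, with a slope of 0.70 ± 0.12 (adjusted p = 0.0031) and of 1.00 ± 0.14 (adjusted p = 0.0039) in QuantSeq.

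Lyve1 and Timd4, genes of resident macrophages, did not pass the test. Lyve1 was highest in N1, at 46.0 CPM against 20.2 to 32.8 in N2 to N5, with slopes of -0.15 ± 0.06 (adjusted p = 0.11) and -0.08 ± 0.09 (adjusted p = 0.78). Timd4 spanned 1.78 to 2.7 CPM in NEBNext and 1.85 to 3.67 in QuantSeq, with slopes of 0.10 ± 0.08 (adjusted p = 0.32) and 0.03 ± 0.15 (adjusted p = 0.96).

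Inflammatory cytokines and chemokines had slopes of like size. In NEBNext 15 of 20 rose, in QuantSeq 8 of 21, and 7 rose in both, with 0 falling in either kit and median slopes of 0.47 and 0.44. Ccl8, a chemokine that attracts monocytes, was at 3.61, 12.9, 37.8, 16.4 and 20.2 CPM in N1 to N5. Q5 (115) and Q1 (69.1) were its highest QuantSeq hearts over a median of 30.5, and its slopes were 0.64 ± 0.08 (adjusted p = 0.0016) and 0.90 ± 0.11 (adjusted p = 0.0022). Il1rn, the natural antagonist of interleukin 1, was at 0.758 CPM in N1 and 6.50 to 17.3 in N2 to N5 and at 2.79 to 12.3 (median 5.98) in QuantSeq, with slopes of 0.89 ± 0.09 (adjusted p = 0.0009) and 0.81 ± 0.12 (adjusted p = 0.0065). Ccl2, the main ligand of Ccr2, rose in NEBNext: 5.26, 44.8, 70.5, 35.8 and 36.6 CPM, slope 0.75 ± 0.05 (adjusted p = 0.00041). In QuantSeq its highest heart was Q1 (72.3), but Q5 (33.3) lay below Q4 (44.1) and Q2 (36.8), and the slope was 0.39 ± 0.15 (adjusted p = 0.28). The 2 slopes of Ccl2 were not shown to differ (adjusted p = 0.4).

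Acute phase genes rose in 6 of 11 cases in NEBNext and 3 of 9 in QuantSeq, with median slopes of 0.40 in both. Without Q1 and Q5 the QuantSeq median was 0.05, against 0.06 for all genes. Genes of MHC class II, which present antigen to T helper cells, rose in 7 of 7 cases in NEBNext and in 1 of 7 in QuantSeq, with all 14 slopes positive and medians of 0.43 and 0.53. H2-DMb1, the member called in both, was at 5.0, 7.55, 16.3, 7.46 and 14.7 CPM in N1 to N5 and spanned 4.99 to 18.5 (median 11.1) in QuantSeq. Here Q3 was the lowest heart and lay within the F/+ range of 4.21 to 8.74. Its slopes were 0.31 ± 0.09 (adjusted p = 0.034) and 0.54 ± 0.12 (adjusted p = 0.041). Complement genes gave 9 of 10 rising in NEBNext and 1 of 10 in QuantSeq, where that 1 was C3ar1, the receptor for the C3a fragment (slopes 0.30 ± 0.06, adjusted p = 0.0073, and 0.42 ± 0.09, adjusted p = 0.034). The median slope of the complement list was 0.28 in QuantSeq and turned to -0.50 without Q1 and Q5.

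Interferon-stimulated genes, the targets of the signal that runs from cytosolic DNA over Sting1 to type I interferon, rose in 21 of 32 cases in NEBNext and in 0 of 31 in QuantSeq by edgeR. Their median slopes were 0.23 and 0.21, 28 of the 31 genes measured in both kits had the same sign, and 20 rose by the common slope. Isg15, a ubiquitin-like protein, stood at 4.73, 31.9, 33.1, 24.6 and 27.1 CPM in N1 to N5, so that N1 alone lay within the wild type range of 3.75 to 10.1 and the others were alike. It ranged from 16.4 over 32.1 to 46.3 in QuantSeq, with slopes of 0.60 ± 0.06 (adjusted p = 0.00098) and 0.40 ± 0.12 (adjusted p = 0.15). Ifit1, which binds foreign RNA, was at 6.56, 17.8, 11.9, 14.1 and 12.6 CPM and had slopes of 0.23 ± 0.07 (adjusted p = 0.039) and 0.43 ± 0.12 (adjusted p = 0.13). Among N2 to N5 the slope of Ifit1 was -0.22, since N3, highest for Timp1, was lowest of those 4 for Ifit1.

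Cytosolic DNA sensing genes rose in 5 of 17 cases in NEBNext and 1 of 16 in QuantSeq. Zbp1, an interferon-induced protein that binds left-handed Z-form RNA and DNA, stood at 2.10 CPM in N1 and 16.8 to 28.9 in N2 to N5, with slope 0.77 ± 0.06 (adjusted p = 0.00041). In QuantSeq it spanned 4.65 to 22.8 (median 10.6), with slope 0.64 ± 0.15 (adjusted p = 0.056). Sting1, the adaptor below cGas, was at 6.96, 20, 32.3, 22.9 and 25.1 CPM, slope 0.44 ± 0.06 (adjusted p = 0.0014), and at 5.33 to 10.6 in QuantSeq, slope 0.32 ± 0.10 (adjusted p = 0.18). Cgas itself was at 1.03, 1.08, 1.88, 1.30 and 1.17 CPM, above the wild type maximum of 0.648 in all 5, with slopes of 0.14 ± 0.10 (adjusted p = 0.31) and 0.28 ± 0.12 (adjusted p = 0.35).

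Iigp1 and F830016B08Rik, interferon-inducible GTPases of the family that attacks the vacuoles of intracellular pathogens, were called in both kits with opposite signs. Iigp1 was highest in N1 in NEBNext (35.9, 21.5, 11.6, 20 and 23.9 CPM in N1 to N5) and highest in Q1 and Q5 in QuantSeq (184 and 178, against 49.1 to 126). Its slopes were -0.25 ± 0.06 (adjusted p = 0.015) and 0.55 ± 0.12 (adjusted p = 0.047). F830016B08Rik had slopes of -0.43 ± 0.13 (adjusted p = 0.033) and 0.79 ± 0.14 (adjusted p = 0.017). The difference of slopes had an adjusted p of 0.057 for each, and neither was called falling in NEBNext without TMM factors (-0.11 for Iigp1 and -0.28 for F830016B08Rik). Members of this family are near-identical in sequence, so their counts can be split between copies.

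Structural matrix genes were mostly called in NEBNext, and the slopes of 0 members were called different between kits by edgeR. In NEBNext 23 of 35 rose and 1 fell, and in QuantSeq 2 of 34 rose, with medians of 0.28 and 0.09. Col1a1, a chain of the main fibrillar collagen, was at 69.8, 307, 620, 243 and 300 CPM in N1 to N5, and N1 lay within the wild type range of 42.0 to 108. Its slope was 0.59 ± 0.07 (adjusted p = 0.0012). The QuantSeq hearts spanned 51.4 to 171 (median 86.7), all below the F/+ maximum of 189, with a slope of 0.25 ± 0.15 (adjusted p = 0.52) and of -0.65 without Q1 and Q5. Col3a1 was at 270, 1209, 2175, 1102 and 1201 CPM in N1 to N5 with slope 0.58 ± 0.07 (adjusted p = 0.0012), and had a QuantSeq slope of 0.46 ± 0.12 (adjusted p = 0.094). Col8a1, a short-chain collagen and 1 of the 2 members called in QuantSeq, was at 20.1, 52.6, 66.3, 40.6 and 38.3 CPM, every heart above the wild type maximum of 13.4, and at 46.8 to 126 in QuantSeq, again all above the F/+ maximum of 29.7. Its slopes were 0.32 ± 0.05 (adjusted p = 0.0034) and 0.49 ± 0.09 (adjusted p = 0.024). Without Q1 and Q5 the QuantSeq median of this list was -0.09.

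Matricellular and TGF-beta genes held 19 rising and 2 falling members of 31 in NEBNext and 5 rising of 30 in QuantSeq, and these 5 rose in both. Postn, which activated fibroblasts secrete, was highest in N2, not N3: 46.2, 328, 256, 148 and 125 CPM in N1 to N5. In QuantSeq it was highest in Q1 (144), ahead of Q5 (88.5) and a range of 34.3 to 64.2 in the others. Slopes were 0.53 ± 0.11 (adjusted p = 0.0072) and 0.55 ± 0.12 (adjusted p = 0.041). With Postn in the place of Timp1 as the axis, 0 NEBNext genes were called by edgeR, and 89 rose and 25 fell in QuantSeq. Ltbp2, which binds elastic fibres, had slopes of 0.79 ± 0.09 (adjusted p = 0.001) and 0.91 ± 0.14 (adjusted p = 0.0076) from 1.83 to 28.9 and 0.569 to 3.21 CPM.

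Among the 18 collagen crosslinking and processing enzymes tested in NEBNext 12 rose, and of 16 in QuantSeq 1 rose, which was Lox. Lox, the enzyme that crosslinks collagen and elastin, was at 8.70, 44.5, 67.1, 19.7 and 19.2 CPM in N1 to N5. In QuantSeq Q1 (21.4) and Q5 (23.9) stood over the other four, which spanned 4.21 to 6.2 and lay within the F/+ range. The slopes of Lox were 0.54 ± 0.11 (adjusted p = 0.0072) and 0.92 ± 0.11 (adjusted p = 0.0022), and -0.10 among those 4 hearts. Timp4, the inhibitor that is normally abundant in heart muscle, ran against Timp1: 130, 42.6, 12.2, 19.6 and 22.4 CPM in N1 to N5, slope -0.61 ± 0.09 (adjusted p = 0.0023). In QuantSeq it was lowest in Q5 (8.03), but the slope of -0.34 ± 0.16 was not called (adjusted p = 0.41).

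Resting fibroblast markers had medians near 0. In NEBNext 3 of 17 rose and 2 fell, against 11.1% and 19.2% of all genes. In QuantSeq 0 of 17 were called by edgeR, and the medians were 0.04 and 0.06. Pdgfra, the growth factor receptor that marks cardiac fibroblasts, spanned 30.2 to 47.8 CPM in NEBNext and 20.8 to 27.5 in QuantSeq, with slopes of 0.07 ± 0.05 (adjusted p = 0.34) and 0.09 ± 0.08 (adjusted p = 0.7). Without TMM factors the list held 9 rising and 1 falling member in NEBNext, and the slope of Pdgfra was 0.18 (adjusted p = 0.016). Activated fibroblast genes rose in 7 of 14 cases and fell in 1 in NEBNext and rose in 1 of 12 in QuantSeq. The falling member was Aspn, the matrix protein asporin, which was highest in N1 (29.2, 18.5, 12.4, 10.8 and 11.8 CPM) with slope -0.25 ± 0.06 (adjusted p = 0.017), and 0.02 without N1. In QuantSeq its slope was 0.44 ± 0.13 (adjusted p = 0.14).

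Proliferation genes rose in 26 of 33 cases and fell in 1 in NEBNext and rose in 1 of 33 in QuantSeq. Their medians were 0.29 and 0.24, 32 of the 33 QuantSeq slopes were positive, and 25 rose by the common slope. Mcm5, a subunit of the replicative helicase, was at 3.84, 10.5, 18.4, 11.8 and 13.8 CPM in N1 to N5, slope 0.44 ± 0.06 (adjusted p = 0.0018), and at 3.46 to 6.83 in QuantSeq, slope 0.33 ± 0.11 (adjusted p = 0.19). Top2a, the topoisomerase of dividing cells, was at 8.03, 15.7, 15.3, 10.6 and 11.6 CPM, all above the wild type maximum of 5.92. Its slopes were 0.18 ± 0.06 (adjusted p = 0.038) and 0.28 ± 0.09 (adjusted p = 0.2), so it varied less than Timp1 in both kits.

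Among cellular stress genes, Hmox1, the heme-degrading enzyme heme oxygenase, was at 39.0, 133, 223, 120 and 123 CPM in N1 to N5 and at 4.44 to 10.1 (median 5.57) in QuantSeq, above the control range in all 11 hearts. Its slopes were 0.47 ± 0.05 (adjusted p = 0.0011) and 0.46 ± 0.10 (adjusted p = 0.046). Its list of NRF2 and heme oxidative stress genes held 4 rising and 1 falling member of 14 in NEBNext, with a median of 0.05. The falling member was Gsta3 (slope -0.53). In QuantSeq 1 of 14 rose, which was Hmox1, with a list median of 0.14. Atf3, a stress-induced transcription factor, had slopes of 0.37 ± 0.05 (adjusted p = 0.0022) and 0.49 ± 0.10 (adjusted p = 0.026). Gdf15, a hormone released by stressed cells, was at 0.535 CPM in N1 and at 5.71 to 16.1 in N2 to N5, with slope 0.96 ± 0.12 (adjusted p = 0.0014). In QuantSeq its order over the 6 hearts was that of Timp1, from 3.93 over 4.71 to 9.72, with slope 0.43 ± 0.11 (adjusted p = 0.083). In the integrated stress response list 9 of 20 rose and 1 fell in NEBNext and 1 of 19 rose in QuantSeq. Cdkn1a, the cell cycle inhibitor downstream of p53, was at 41.6, 79.2, 139, 93.0 and 114 CPM, slope 0.33 ± 0.06 (adjusted p = 0.0043), and had a QuantSeq slope of 0.17 ± 0.09 (adjusted p = 0.44).

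**Figure D3:**
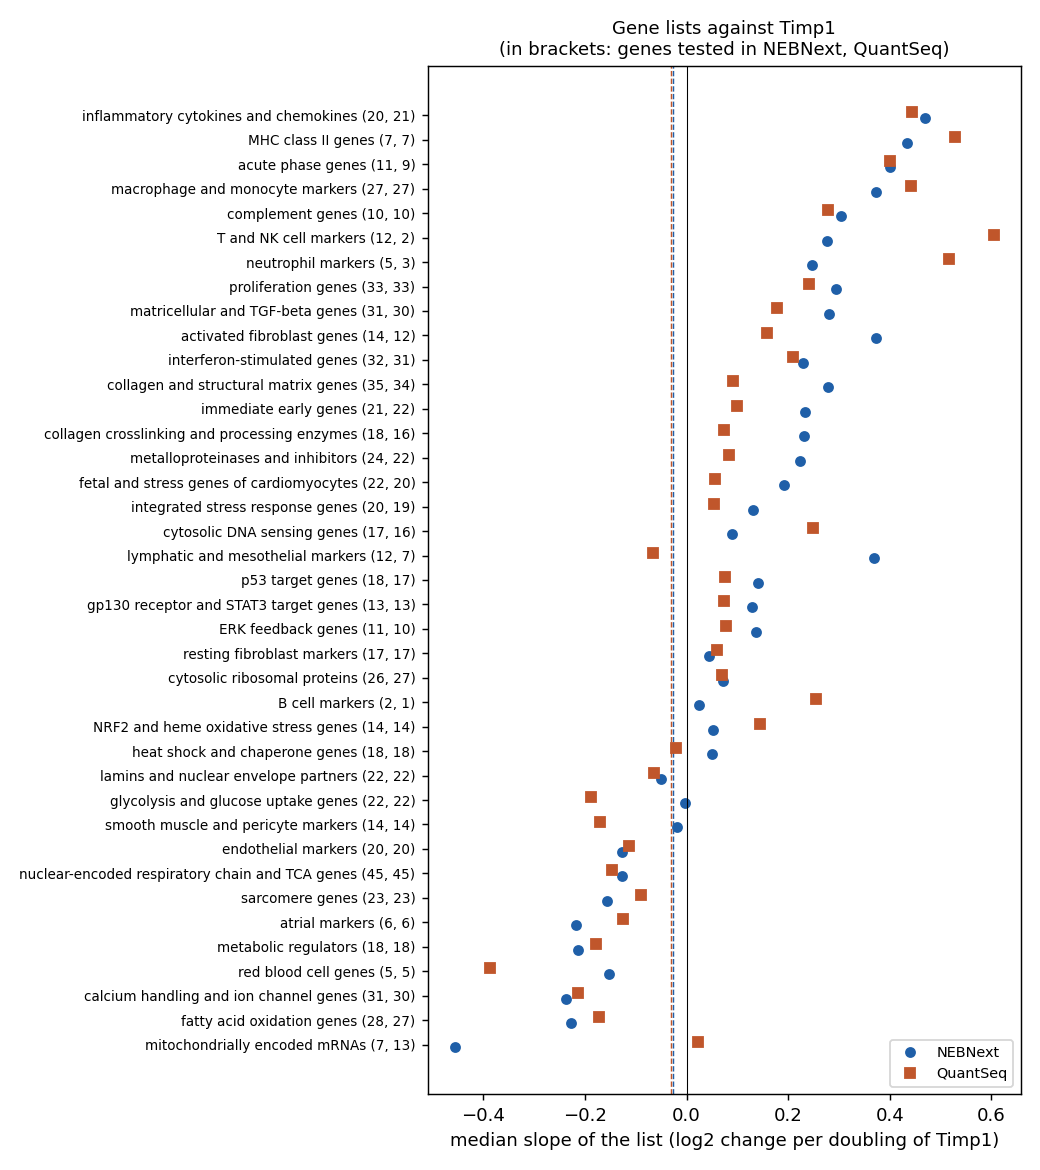
Median slope on Timp1 (horizontal, log2 change per doubling of Timp1) of each gene list in NEBNext (blue circles) and QuantSeq (orange squares), ordered by the common slope; dashed lines mark the median of all genes, -0.03 in both kits. The cytokine, MHC class II, acute phase and macrophage lists lie at the top with medians of 0.37 to 0.53, and fatty acid oxidation and ion channel lists near the bottom.

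Of the cardiomyocyte stress genes, 1 was called rising with Timp1 in both kits. In NEBNext 10 of 22 rose and 3 fell, and in QuantSeq 1 of 20 rose. That member was Ankrd1, a stretch-responsive protein of the sarcomere, at 1435, 4007, 3966, 3368 and 3691 CPM in N1 to N5 and from 2575 over 5062 to 12511 in QuantSeq. N1 lay within the wild type range of 526 to 1700, and the slopes were 0.32 ± 0.08 (adjusted p = 0.015) and 0.68 ± 0.14 (adjusted p = 0.027). Sprr1a, a small protein of injured cardiomyocytes, had the steepest NEBNext slope of the genes named here, 1.36 ± 0.15 (adjusted p = 0.001), from 0.714 CPM in N1 to 88.9 in N3, and was too low to be tested in QuantSeq (at most 4.55). Myh7, the fetal myosin heavy chain, did not rise: it was highest in N1 (559, against 161 to 275 in N2 to N5) with slope -0.28 ± 0.08 (adjusted p = 0.022), which turned to 0.60 without N1. Its QuantSeq slope was -0.30 ± 0.10 (adjusted p = 0.2).

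The natriuretic peptides, hormones that stretched heart muscle releases, were called in NEBNext and not in QuantSeq, and their slopes were not shown to differ between kits (adjusted p = 0.46 for Nppa and 0.22 for Nppb). Nppa was at 237, 1364, 1645, 2074 and 1275 CPM in N1 to N5, with N1 just under the wild type range, and its slope of 0.62 ± 0.11 (adjusted p = 0.0047) became -0.04 without N1. N4, highest for Nppa, was also highest of the NEBNext hearts for the atrial genes Myl7 (110 CPM, against 1.55 to 42.3) and Sln (19.8 CPM, against 0.0613 to 14.5). Nppb was at 136, 844, 1093, 691 and 1014 CPM, slope 0.64 ± 0.08 (adjusted p = 0.0013). In QuantSeq Nppa was highest in Q3 (1793), Q5 (1269) and Q6 (841), the hearts in which the atrial genes Myl7 (323, 221 and 107 CPM) and Sln (468, 282 and 129 CPM) were also high. In Q1, Q2 and Q4 Myl7 was at most 1.07 CPM and Nppa at 223 to 459. The summed level of the 8 atrial markers was 274 to 3406 CPM over the QuantSeq hearts and 367 to 2359 over the NEBNext hearts. In N2 to N5 the sum (1400, 1665, 2359 and 1300 CPM) lay close above Nppa alone. It is therefore no measure of atrial tissue apart from Nppa in those hearts. None of the 8 was at 0 in the QuantSeq hearts, and 0 of 6 tested were called in QuantSeq by edgeR. The QuantSeq slope of Nppa was -0.05 ± 0.29 (adjusted p = 0.97), and 0.22 with Myl7 as a term. The part of atrial tissue in other results was not tested beyond this term.

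On the negative side, the genes whose correlation with Timp1 was nearest to -1 in both kits were Btnl9, Rbp7, Fabp4, Cmtm8, Agtr1a, Etl4, Adipor1, Gja3, Tatdn3 and Trip10, of which 7 were called falling in NEBNext and 3 in QuantSeq. Btnl9, a butyrophilin-like protein of capillary endothelium, was at 20.7, 4.44, 2.85, 4.30 and 4.60 CPM in N1 to N5. N1 lay above the wild type range of 7.87 to 16.4 and the other four below it. In QuantSeq Q1 (4.28) and Q5 (4.38) were lowest, under the F/+ range of 6.73 to 13.8, and the other four (7.20 to 9.31) lay within it. The slopes of Btnl9 were -0.57 ± 0.04 (adjusted p = 0.00044) and -0.45 ± 0.10 (adjusted p = 0.049), and -0.56 without N1 and -0.44 without Q1 and Q5.

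Rbp7, a retinol-binding protein of heart capillaries, was at 115, 15, 6.06, 26.7 and 12.8 CPM in N1 to N5, with slope -0.77 ± 0.08 (adjusted p = 0.0009). In QuantSeq it was 15.2 in Q1 and 15.7 in Q5 and 27.6 to 34.3 in the others, slope -0.44 ± 0.09 (adjusted p = 0.036), and -0.04 among those 4. Fabp4, a fatty acid carrier of endothelium, was at 1384, 609, 365, 398 and 440 CPM, slope -0.38 ± 0.06 (adjusted p = 0.0031). In QuantSeq its hearts spanned 597 to 814 with slope -0.16 ± 0.10 (adjusted p = 0.54). Endothelial markers as a group gave 9 falling and 0 rising of 20 in NEBNext and 0 of 20 called in QuantSeq by edgeR, with medians of -0.13 and -0.11, which became 0.00 in both kits without TMM factors, against medians of all genes of 0.09 and 0.03. The NEBNext calls were then 3 rising and 3 falling. Pecam1, the adhesion molecule shared by all endothelium, had slopes of -0.12 ± 0.05 (adjusted p = 0.089) and -0.16 ± 0.09 (adjusted p = 0.49). The summed level of the 20 endothelial markers was 4304 CPM in N1, of which Fabp4 made up 1384. It was 1718 to 2460 in N2 to N5, against 2423 to 4148 in wild type hearts. The mean of log2(CPM + 1) over these markers was 6.15 in N1, within the wild type range of 5.84 to 6.34. It was 5.45 to 5.75 in N2 to N5. In QuantSeq the summed level was 1873 in Q5 and 2007 in Q1 and 2192 to 2397 in the others, against 2020 to 2700 in F/+ hearts.

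Calcium handling and ion channel genes of cardiomyocytes fell in 20 of 31 cases in NEBNext and in 1 of 30 in QuantSeq, with 0 rising in either and medians of -0.24 and -0.21. Without TMM factors the NEBNext list held 4 rising and 11 falling members with a median of -0.09, and without Q1 and Q5 the QuantSeq median turned to 0.11. Kcnip2, the subunit that shapes the fast outward potassium current, was the member called in both: 76.2, 38.4, 17.6, 26.4 and 35.8 CPM in N1 to N5, slope -0.36 ± 0.07 (adjusted p = 0.0046). Every NEBNext heart lay below the wild type range of 86.0 to 121. In QuantSeq Kcnip2 was 29.7 in Q1, 37.8 in Q5 and 58.1 to 90.2 in the others, with slope -0.53 ± 0.10 (adjusted p = 0.024) and -0.57 without Q1 and Q5. Kcnj2, the inward rectifier potassium channel, was at 28.7, 9.86, 4.06, 9.59 and 7.42 CPM, slope -0.49 ± 0.06 (adjusted p = 0.0015), and had a QuantSeq slope of -0.22 ± 0.10 (adjusted p = 0.37). Atp2a2, the calcium pump of the sarcoplasmic reticulum, was at 4087, 2281, 1689, 2125 and 2068 CPM, slope -0.24 ± 0.06 (adjusted p = 0.017), and had a like QuantSeq slope of -0.26 ± 0.13 that was not called (adjusted p = 0.44). Cmtm8 (slopes -0.39 ± 0.07, adjusted p = 0.0039, and -0.50 ± 0.09, adjusted p = 0.016) was another of the 17 genes falling in both kits. Kcnj11, a subunit of the ATP-sensitive potassium channel, and Adcy6, an adenylyl cyclase of heart muscle, were also among them and are named after their values were seen.

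Sarcomere genes fell in 8 of 23 cases in NEBNext, fatty acid oxidation genes in 19 of 28, nuclear-encoded respiratory chain and TCA genes in 13 of 45 and metabolic regulators in 9 of 18, where 1 rose. Over all genes tested in NEBNext, 19.2% fell and 11.1% rose. In QuantSeq 0 members of these 4 lists were called by edgeR. Their QuantSeq medians were -0.09, -0.17, -0.15 and -0.18, and their NEBNext medians -0.16, -0.23, -0.13 and -0.21. Without TMM factors the NEBNext medians were -0.02, -0.08, 0.00 and -0.07 against 0.09 for all genes, and the falling members numbered 3, 9, 2 and 5. Without Q1 and Q5 the 4 QuantSeq medians turned to 0.25, 0.18, 0.10 and 0.06, against 0.06 for all genes, so among the 4 QuantSeq hearts of low Timp1 these medians were not negative.

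Mlycd, which removes the inhibitor of mitochondrial fatty acid import, was at 59.4, 37.9, 25.3, 30.9 and 37.1 CPM in N1 to N5, all below the wild type range of 65.4 to 86.6. Its slopes were -0.22 ± 0.05 (adjusted p = 0.009) and -0.38 ± 0.09 (adjusted p = 0.07). Acadvl, the first enzyme of long-chain fatty acid oxidation, was at 840, 657, 426, 637 and 642 CPM, with N1 also below the wild type minimum of 1052, and had slopes of -0.15 ± 0.06 (adjusted p = 0.091) and -0.17 ± 0.11 (adjusted p = 0.54). Slc2a4, the insulin-responsive glucose transporter, was at 171, 105, 49.7, 67.8 and 79.6 CPM, slope -0.30 ± 0.06 (adjusted p = 0.008), and had a QuantSeq slope of -0.34 ± 0.10 (adjusted p = 0.14). Myh6 was at 8527, 5138, 2974, 5445 and 5185 CPM and had slopes of -0.24 ± 0.08 (adjusted p = 0.054) and -0.28 ± 0.14 (adjusted p = 0.43).

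Mitochondrially encoded mRNAs were called in NEBNext and not in QuantSeq. The 7 that could be tested in NEBNext all fell, with a median slope of -0.46, and of 13 in QuantSeq 0 were called by edgeR, with a median of 0.02 that became -0.02 without TMM factors. The other 6 of the 13 had almost no counts in NEBNext, for a reason not known here, so the mitochondrial values of the kits cover different genes. mt-Co1, a subunit of cytochrome oxidase, was at 50844, 23254, 13216, 16015 and 15597 CPM in N1 to N5, slope -0.38 ± 0.10 (adjusted p = 0.022), and spanned 10717 in Q5 to 20844 in Q4, slope -0.08 ± 0.16 (adjusted p = 0.88). The slopes of mt-Co1 were not shown to differ (adjusted p = 0.52). Among the F/F hearts N1 shares its pool with N2 alone. With the pool as a term the NEBNext slope of mt-Co1 was -0.27 and not called (adjusted p = 0.15).

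Lmna RNA itself, the targeted gene, was lowest in N1, the NEBNext heart of lowest Timp1. It stood at 33.6, 77.1, 75.1, 59.7 and 60.2 CPM in N1 to N5, and all 5 lay below the wild type range of 79.7 to 96.9. The NEBNext slope was thus positive, 0.24 ± 0.05 (adjusted p = 0.0065), and 0.24 without N1. In QuantSeq Lmna ranged from 24.6 over 26.6 to 37.6 (F/+ hearts 27.2 to 36.3), highest in Q5, with slope 0.09 ± 0.09 (adjusted p = 0.76). The labels do not place the floxed exons within the gene, so a 3' tag may lie outside the deleted part and does not check the deletion. RNA of heart tissue also holds Lmna transcripts of cells in which the Cre is not made. H2af-ps2, a pseudogene that stood at 3.40 to 9.90 CPM in wild type hearts, was at 0.0446 in N1 and 0.0204 to 0.0549 in N2 to N5, so all 5 F/F hearts, N1 included, lay far below wild type. It is named after its values were seen, and in QuantSeq it spanned 0.932 to 1.80 CPM and overlapped the F/+ range of 1.06 to 2.07.

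Lmnb1, a lamin made from another gene, was at 3.39, 5.74, 12.9, 6.89 and 8.95 CPM in N1 to N5, slope 0.35 ± 0.08 (adjusted p = 0.011), and had a QuantSeq slope of 0.21 ± 0.11 (adjusted p = 0.43). Among the 22 lamins and nuclear envelope partners 3 rose and 1 fell in NEBNext, against 11.1% and 19.2% of all genes. In QuantSeq 0 of them were called by edgeR. The medians were -0.05 and -0.06, close to all genes, and without TMM factors 0.08 and 0.03, again close to all genes.

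Lists of other cell types and processes follow. T and NK cell markers rose in 2 of 12 cases in NEBNext and 0 of 2 in QuantSeq by edgeR. All slopes of this list were positive, with medians of 0.28 and 0.60 against -0.03 for all genes. Without TMM factors 7 of 9 rose in NEBNext. Neutrophil markers rose in 0 of 5 and 1 of 3 cases by edgeR, with medians of 0.25 and 0.52. Their QuantSeq median was -2.29 without Q1 and Q5. Smooth muscle and pericyte markers rose in 2 and fell in 2 of 14 in NEBNext and were called in 0 of 14 in QuantSeq by edgeR. Lymphatic and mesothelial markers rose in 6 and fell in 2 of 12 cases in NEBNext, p53 targets in 7 and 3 of 18, heat shock and chaperone genes in 5 and 4 of 18, and ERK feedback genes rose in 5 of 11. In QuantSeq these 4 lists held 0 calls by edgeR. Glycolysis genes rose in 3 and fell in 6 of 22 cases in NEBNext, and without TMM factors in 9 and 1. Cytosolic ribosomal protein genes rose in 4 and fell in 2 of 26, and without TMM factors rose in 16 and fell in 0. With TMM factors 11.1% of all genes tested in NEBNext rose and 19.2% fell, and several of these lists lie near those shares. Immediate early genes, which respond within minutes to a stimulus, rose in 13 of 21 cases in NEBNext and 1 of 22 in QuantSeq, with medians of 0.23 and 0.10. Red blood cell genes summed to 423 CPM in Q1 and to 1426 to 2836 CPM in the other QuantSeq hearts.

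**Figure D4:**
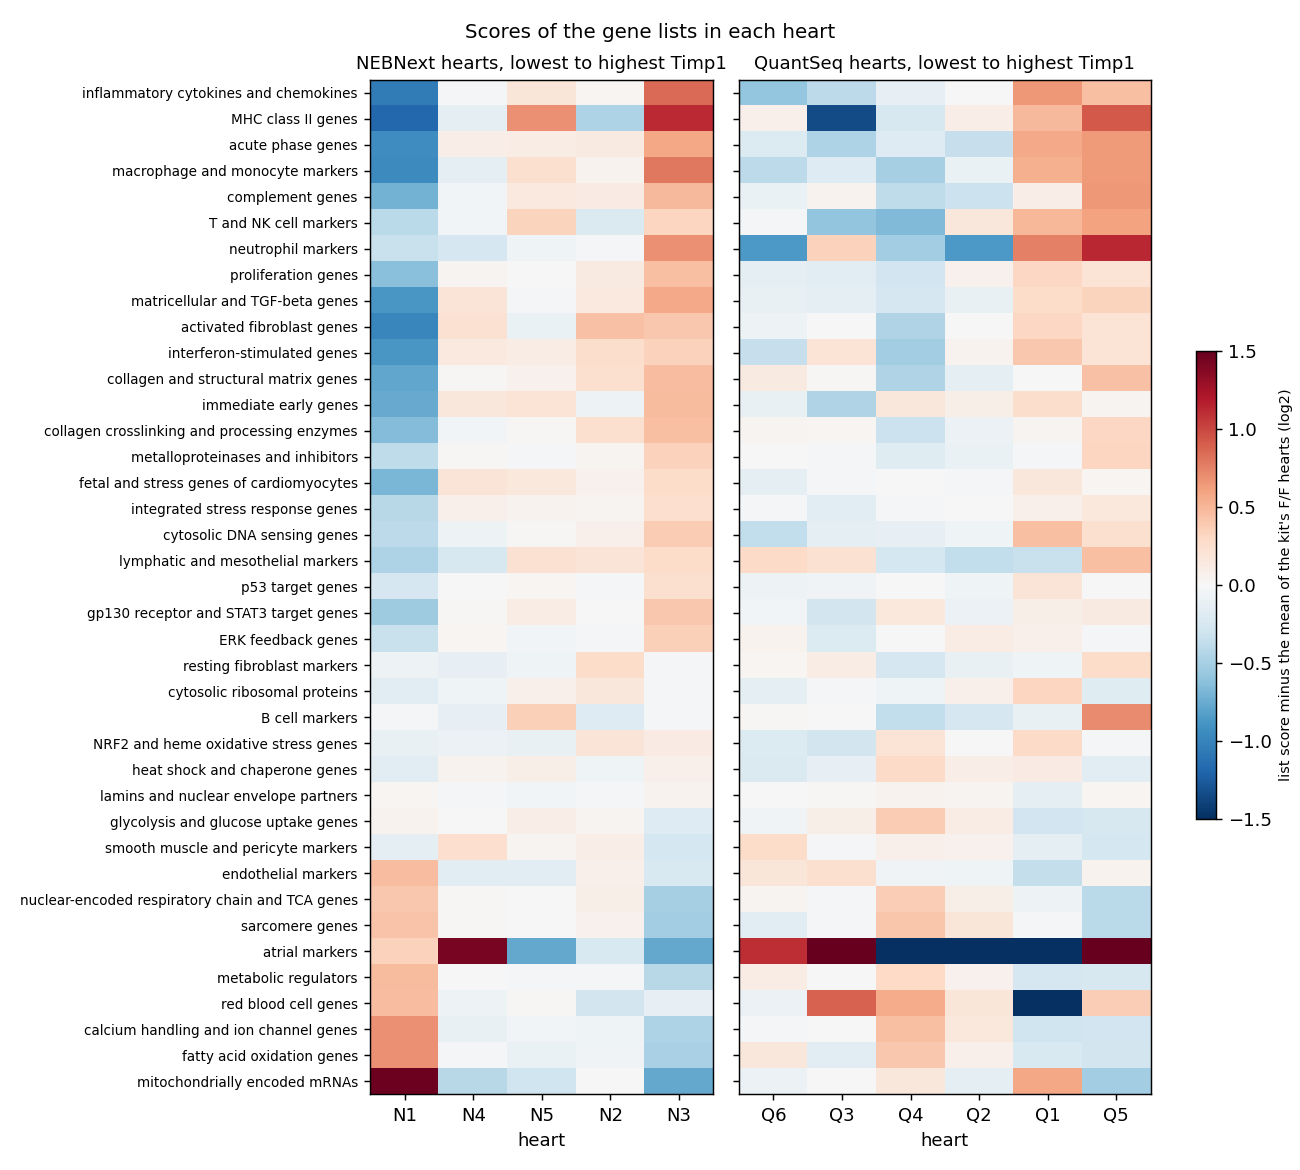
Score of each gene list, the mean of log2(CPM + 1) over its members, in each heart minus the mean of the kit's F/F hearts (colour, log2 units, capped at 1.5 in either direction); hearts run from lowest to highest Timp1 in each kit. The column of N1 is low for immune, matrix and stress lists and high for metabolic lists, and the QuantSeq hearts other than Q1 and Q5 show no steady order.

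Heart N1 lay outside the wild type range for many genes. Of the 84 genes that rose in both kits, 62 were above the highest wild type heart in N1 and 82 to 84 in N2 to N5, and of the 17 that fell 7 were below the lowest wild type heart in N1 and all 17 in each of N2 to N5. Over all genes tested, 28.1% were above and 21.4% below the wild type range in N1, against 21.5 to 27.9% and 29.2 to 36.8% in N2 to N5. A further control heart would also have some genes outside a range set by so few hearts, in either kit, and that share was not measured. The scores of N1 exceeded the wild type maximum for macrophage and monocyte markers (4.17, wild type 3.19 to 3.72), cytokines and chemokines (2.62, 1.75 to 2.13) and proliferation genes (2.08, 1.45 to 1.93). They lay within the wild type range for interferon-stimulated genes (3.08, 2.61 to 3.09) and for structural matrix genes (5.08, 4.70 to 5.29). Of 39 list scores, 11 were above and 4 below the wild type range in N1, against 22 to 24 above and 9 below in each of N2 to N5.

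QuantSeq hearts also fell into 2 levels by this count. Q1 and Q5 each had 83 of the 84 rising genes above the F/+ maximum and all 17 falling genes below the F/+ minimum. For Q2, Q3, Q4 and Q6 the numbers were 75, 68, 60 and 51 of 84, and 10, 8, 7 and 5 of 17. Over all genes tested, 21.1% and 18.7% were above and 28.4% and 29.4% below the F/+ range in Q1 and Q5, against at most 17.7% above and 18.0% below in each of the other four. Since the genes were chosen by these hearts, the counts describe them and carry no test.

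**Figure D5:**
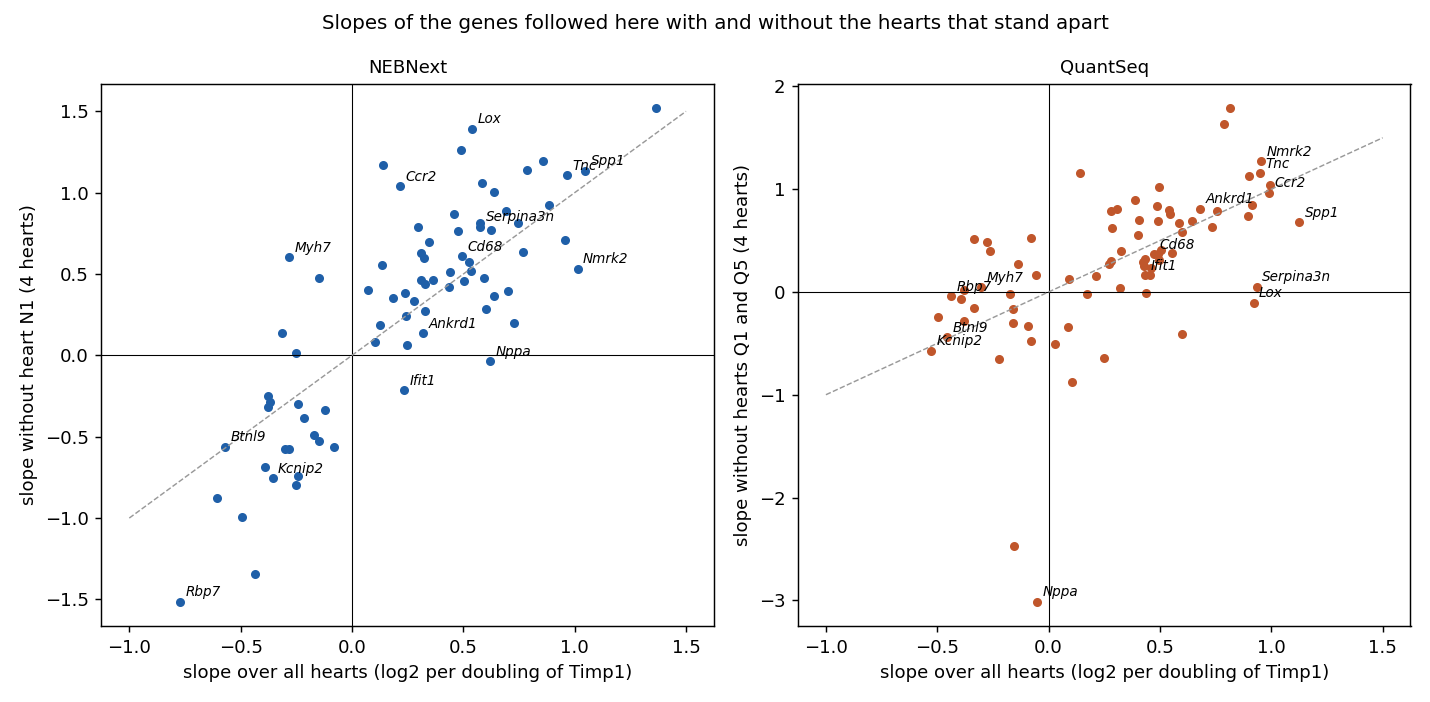
Slope on Timp1 of the genes followed here, Myl7 left out, over all hearts (horizontal) against the slope without N1 (left, NEBNext) or without Q1 and Q5 (right, QuantSeq), each from 4 hearts; the dashed line marks equal slopes. Tnc, Nmrk2 and Ccr2 keep positive slopes in both panels, while Ifit1, Nppa and Myh7 change sign on the left and Lox on the right.

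With only 6 hearts, single genes were also ranked against Timp1 with exact two-sided permutation tests of Pearson's r over all orders of the QuantSeq hearts. Of 37 genes, 14 had p under 0.05 and 0 passed after adjustment over the 37. The lowest was Gdf15 (r = 0.918, rho = 1.00, exact p = 0.00139, the smallest these orders allow, adjusted 0.0514), and Tnc (r = 0.990, rho = 0.943) and Cd68 (r = 0.975) shared the next lowest exact p of 0.00694 (adjusted 0.0822). Without Q1 and Q5, the 2 hearts farthest from the median, r was 0.866 for Gdf15 and 0.905 for Tnc, and 24 of the 37 genes kept their sign. The hearts form 2 clusters on the Timp1 axis, so each r describes likeness over these 6 hearts.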

How the data were processed

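Mouse hearts were profiled by RNA-seq with 2 kits. The submitters' processing notes name STAR 2.7.9 and the genome build mm39, and no label or header names the tool or annotation used for counting. The authors deposited raw counts per gene, TPM values for NEBNext and CPM values for QuantSeq (the table's columns sum as CPM). From the counts, R 4.3.3 with edgeR 4.0.16 fitted each gene's quasi-likelihood slope on log2 CPM of Timp1, over the F/F hearts of a kit, after filterByExpr (minimum count 10, total 15) and TMM over all libraries of the kit. Timp1 was left out, and Benjamini-Hochberg adjustment ran over all genes tested with a threshold of 0.05. Standard errors are the slope divided by the root of the F statistic. A fit over 11 hearts gave the common slope and the kit difference. List scores use log2(CPM + 1). Every adjusted p on a slope is edgeR's unless another test is named. Count sums of 15955989 to 33993289 per heart set the precision, and values carry counting error besides.

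Members and lists were chosen with earlier results of these data known. Genes named are fixed pathway genes, the 10 most like Timp1 in each direction with mean CPM of at least 5 in both kits, the leading and opposing members of each list, and genes called with opposite signs; others are said to be named after their values were seen. Alternatives included DESeq2 1.42.0 and limma 3.58.1. On simulated counts the fit recovered 97.0% of slopes of 0.5 in NEBNext and 56.3% in QuantSeq. Those counts used each kit's own Timp1 values, whose range is wider in NEBNext. Each gene was drawn on its own, with no spread shared by the genes of a heart. The recovered shares therefore check the fit and do not carry over to these hearts.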

Additional observations from a re-analysis of the deposited data

Results flagged for a closer look

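In these groups of 5 or 6 hearts, 9 of 84 sets of values had 1 heart far from the rest, by the gap to its nearest neighbour over the whole range. Chance alone gives about 1 in 20 for a single set of normally distributed values. These sets come from the same hearts and are not independent, so the 9 carry no test. In NEBNext, N1 stood apart with a log2 CPM of Timp1 of 3.95, an interferon-stimulated gene score of 3.08 and a score of 6.47 for fetal and stress genes of cardiomyocytes, in each case as the lowest heart. N2 stood apart as the highest for resting fibroblast markers (6.34). In QuantSeq, Q5 was the highest for B cell markers (3.31) and for metalloproteinases and inhibitors (3.43). Q1 was the lowest for red blood cell genes (5.14) and for lamins and nuclear envelope partners (4.00), and the highest for p53 target genes (3.86).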

How the results depend on the processing

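The counts of genes called were the results that moved most. Genes called were 4044 in NEBNext, 146 in QuantSeq and 101 in both. For QuantSeq and for both kits they were 63 and 56 without TMM factors, 356 and 237 with DESeq2, 22 and 17 with sex as a term, 12 and 7 with the spread shared over all libraries of the kit, 85 and 62 with Serpina3n in place of Timp1, and 53 and 44 with limma on the deposited values. Postn in place of Timp1 gave 0 in NEBNext and 0 in both, and the sequencing pool as a term gave 1220 in NEBNext. Chosen after seeing the data, Myl7 as a term gave 1931, 551 and 247, and leaving out Q1 and Q5 gave 1 in QuantSeq and 0 in both. The NEBNext split into rising and falling genes was 1481 and 2563, and became 4309 and 783 without TMM factors, 2011 and 2062 with DESeq2, and 2161 and 1707 with TMM factors from unfiltered genes. Leaving out 1 heart at a time gave 0 (without N1) to 4828 calls in NEBNext and 5 (without Q1) to 193 (without Q5) in QuantSeq. In both kits it gave 0 (without N1) to 108. Without Q1, 4 were called in both. Of 78 genes followed, 16 QuantSeq slopes changed sign without Q1 and Q5, of which only that of Lox had been called (-0.10). In NEBNext 6 of 78 did so without N1, of which 5 had been called: Ifit1 (-0.22 to 0.30 over hearts left out in turn), Nppa (-0.04 to 0.69), Myh7 (-0.42 to 0.60), Aspn (-0.28 to 0.02) and Flt1 (-0.36 to 0.14). The causes were not tested. No paired analysis was possible because each comparison lies within 1 group of hearts, whose numbers pair with no other group.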
